A study of Mus musculus with 10 samples.

Results

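The resting transcriptome of macrophages without WASp was read across genes in 4 unconfined libraries of mouse bone marrow-derived macrophages, 2 from wild-type mice (WT, replicates 1 and 3) and 2 from WASp knockout mice (WKO, replicates 1 and 3). A gene was taken where its normalized read count averaged 10 or more in these 4 libraries, which gave 12563 of the 57010 identifiers in the deposited table. The whole series holds 10 libraries: the other 6 come from cells squeezed to 3 µm for 1 h between surfaces spaced by silicone pillars, 3 of each genotype, and served here to read the same genes in other libraries, and in fits over all 10 libraries where these are named. All cells were flushed from the femur of either genotype and grown for 7 days with 20 ng/mL recombinant macrophage colony-stimulating factor, and 5 ng of total RNA went into each library. The unconfined cells are labelled as controls of that treatment. The knockout allele, the strain, the age and the number of mice are not given in the sources used here, and neither is whether replicates are separate animals or cultures, so that p-values measure only the spread between these libraries, which may be technical.

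WASp, the product of Was, is found in blood cells and relays signals from Cdc42 and from membrane lipids to the Arp2/3 complex, which starts branched actin filaments. In macrophages it is known for building podosomes, the actin-rich adhesions that hold integrins and vinculin and release proteases, and for chemotaxis and phagocytosis. Loss of WASp in people causes Wiskott-Aldrich syndrome, an immune deficiency with autoimmunity and inflammation.

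The depth was similar in both genotypes, with 15531020 and 15220111 reads in the WT libraries and 14319544 and 13785787 in the WKO libraries. Replicates of a genotype differed by more than sampling noise. The median spread of a gene between replicates (SD of log2 values) was 0.161 in WT and 0.125 in WKO. The macrophage markers Csf1r, Adgre1, Cd68 and Lyz2 were abundant in all 4. Lyz2, which encodes lysozyme, stood at 132963 and 128000 in WT and 157886 and 161395 in WKO. The share of reads from 18S ribosomal RNA was 0.330% and 0.270% in WT and 0.210% and 0.144% in WKO, and its gene Rn18s passed as lower (adjusted p = 0.043 with limma and 0.055 with edgeR); the mitochondrial share was between 1.11% and 1.35%. Y-linked Ddx3y was present in every library, at 1282 and 1066 in WT and 1031 and 992 in WKO. Among the confined libraries WKO replicate 5 stood apart in its markers of other cells and in inflammatory genes such as Tnf, at 17188 against 4583 and 2368 in the other WKO libraries, and the confined values of single genes and the number of genes past the threshold are given with and without it below.

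The genotypes were compared with limma on log2(normalized read count + 1), Benjamini-Hochberg over all tested genes. In unconfined cells 208 of the 12563 genes, or 1.66% of those tested, differed between WKO and WT at an adjusted p under 0.05. Of these, 113 genes (0.899%) were higher and 95 (0.756%) lower in WKO. The median change over all tested genes was 0.00 on the log2 scale, and 50.4% of them had the higher mean in WKO. Among the genes that passed, the median size of the change was 1.13 on the log2 scale. A change above 1 was seen for 76 of the higher genes and a change below -1 for 42 of the lower genes. The genotypes did not overlap in 5632 tested genes (44.8%), so that lack of overlap by itself is common with 2 libraries against 2.

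The number of genes that passed rested on single libraries. Without WKO replicate 3 it was 16 and without WKO replicate 1 it was 46, while it was 602 without WT replicate 1 and 856 without WT replicate 3, each time with the spread of the lone library taken from the other genotype. In a fit that shares its spread with the 6 confined libraries, 18 genes (0.143%) passed, all among the 208. All of the 208 that were tested kept their direction in every fit that leaves out a library. Where the genotypes do not overlap this is fixed in advance, so it is no separate support. Counts of Gm20056, Slc2a1, Fcgr2b and Olfm4, named next from the fits without a library, are uncertain. Gm20056 is a processed pseudogene, and Chp1 covers 100% of its transcript at a best identity of 98.6%. The others have exons that overlap another gene. Only 16 genes, 9 higher and 7 lower, passed in all 4 of those fits: Was, Il1rn, Nes, Slc2a1, Mamdc2, Chst11 and Gm20056 among the lower, and Slc40a1, Fcgr2b, Chil3, Ighm, Igkc, Ltf, Lcn2, S100a9 and Olfm4 among the higher.

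**Figure D1:**
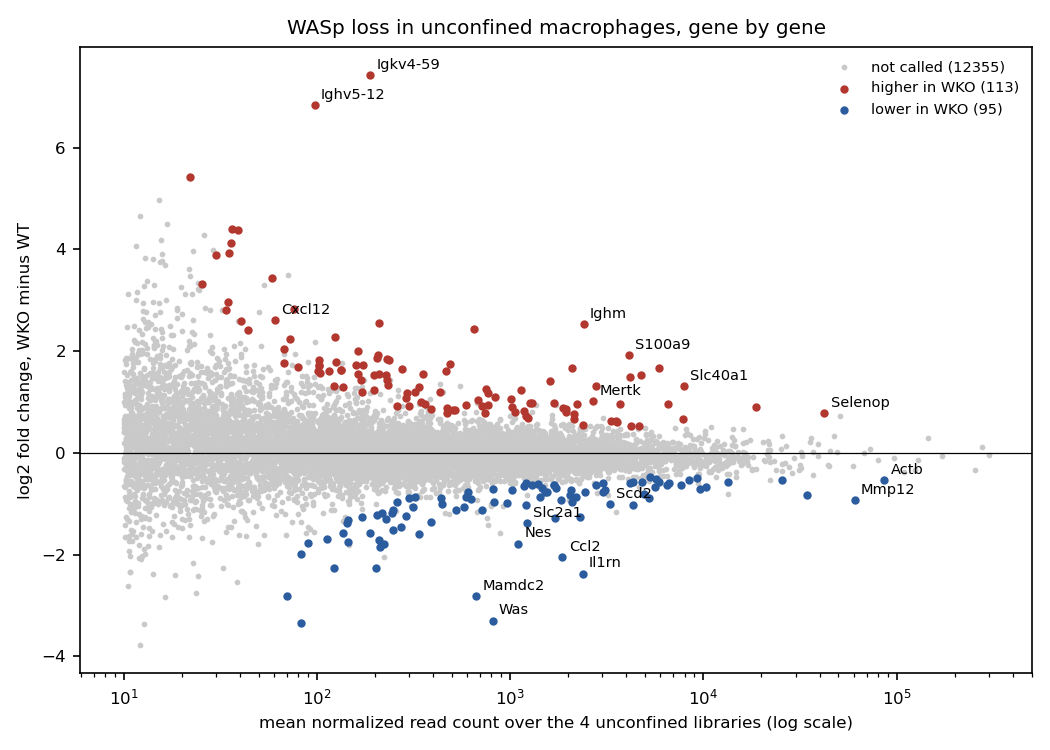
Each point is 1 of 12563 tested genes, with its mean normalized read count over the 4 unconfined libraries (x, log scale) and its log2 fold change, WKO minus WT (y). Red points are the 113 genes higher and blue points the 95 genes lower in WKO at an adjusted p under 0.05; fitted changes of genes near 0 in WT, such as Igkv4-59, depend on the pseudocount.

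Was itself (chrX:8081453-8090498, minus strand, GRCm38) stood at 1308 and 1639 in WT and at 154 and 141 in WKO, so that the knockout libraries held 10.0% of the WT mean and did not overlap with it. Its log2 fold change was -3.30 (SE 0.168, adjusted p = 2.0e-05). The remaining reads were not assigned to a part of the gene here. The targeted gene thus matched the genotype label of each of the 4 libraries.

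No other gene of the actin nucleation machinery passed the test. Of 38 tested genes for WASp relatives, the WAVE complex, the Arp2/3 complex and their regulators, 1 was lower (Was) and 0 were higher, and the list's median was -0.07 against 0.00 over all genes. Wasl, which encodes the widely expressed relative N-WASP, stood at 400 and 380 in WT and at 373 and 428 in WKO, with overlapping genotypes (log2 fold change 0.04, SE 0.164, adjusted p = 0.951). Wipf1, whose product WIP binds and stabilizes WASp, had 3205 and 3567 in WT and 3233 and 3017 in WKO (log2 fold change -0.11, adjusted p = 0.709). Wasf2, for the WAVE subunit that drives lamellipodia, lay at 4622 and 4791 in WT and at 4826 and 5233 in WKO (adjusted p = 0.749). The Arp2/3 subunit genes Actr2, Actr3, Arpc1b and Arpc2 had log2 fold changes between -0.23 and -0.07, with adjusted p between 0.353 and 0.84. The gene of this list nearest to the threshold was Gmfg, whose product takes apart filament branches: it stood at 232 and 266 in WT and at 391 and 493 in WKO (log2 fold change 0.82, adjusted p = 0.0642).

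A few genes for adhesion and for the actin filament fell in WKO, Vcl, Itgax and Actb among them. Of 30 tested podosome, integrin and adhesion genes, 3 fell and 0 rose, against 0.756% and 0.899% of all genes, and the median was -0.15. Vcl, which encodes the podosome ring protein vinculin, stood at 2366 and 2465 in WT and at 1226 and 1296 in WKO, a fall to 52.2% with no overlap (log2 fold change -0.94, SE 0.112, adjusted p = 0.00451). Itgax, for the CD11c chain of complement receptor 4, fell from 5385 and 6294 to 2661 and 3044 (log2 fold change -1.03, SE 0.12, adjusted p = 0.00356). Itga5, for the fibronectin receptor chain, fell from 2655 and 3483 to 1908 and 1664 (log2 fold change -0.77, adjusted p = 0.0315). The integrin chain Itgam, the partner of the same beta chain as Itgax, did not pass (2458 and 2830 in WT, 2149 and 2299 in WKO, adjusted p = 0.389), nor did Itgb2, for that beta chain, at 26452 and 26603 in WT and 20385 and 21816 in WKO (adjusted p = 0.149). Tln1, for the integrin activator talin, had a wide WT range, with 40587 and 29641 in WT and 27952 and 27178 in WKO (adjusted p = 0.328). Between 0 genes of this list (without either WKO library) and 6 genes (without WT replicate 1) fell when a library was left out, and 5 fell without WT replicate 3; 2 rose without either WT library.

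A list of 49 genes for actins, filament binding and contractility was put together after these values had been seen. In it 6 were lower and 1 was higher, against 0.756% and 0.899% of all genes. The lower mean was in WKO for 36, with a median of -0.14. Actb, for the cytoplasmic beta actin, stood at 101460 and 102712 in WT and at 72672 and 68441 in WKO, which is 69.1% of the WT mean (log2 fold change -0.53, SE 0.105, adjusted p = 0.0367). Its gamma partner Actg1 had 30339 and 30404 in WT and 20601 and 21396 in WKO, also 69.1% (adjusted p = 0.0302). For both actin genes the WKO values lay below both WT values, and replicates of a genotype were closer to each other than to the other genotype. The test already measures this separation in the same libraries, so it is no separate support.

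The tropomyosin gene Tpm4, for a protein that coats filaments, fell from 6050 and 5460 to 3943 and 3818 (adjusted p = 0.031), and Tpm1 lay just outside the threshold with 2110 and 2070 in WT and 1464 and 1465 in WKO (adjusted p = 0.0527). Inf2, for a formin that assembles unbranched filaments, fell from 1841 and 2095 to 1113 and 1190 (log2 fold change -0.77, adjusted p = 0.0183). Rhob, for a small GTPase of endosomes, fell from 3209 and 4527 to 2347 and 2241 (adjusted p = 0.0464 with limma and 0.058 with edgeR). The 1 gene of the list that rose was Acta2, the smooth muscle actin, which is also a stromal marker and is taken up below. Srf, for the serum response factor that reads the pool of free actin through its partners, had 787 and 861 in WT and 624 and 470 in WKO (log2 fold change -0.60, adjusted p = 0.122). Leaving out either WKO library left 0 genes of the list below the threshold, while 14 fell and 2 rose without WT replicate 1, and 11 fell and 4 rose without WT replicate 3. Counts of Vcl, Actg1 and Tpm4 are uncertain, because other genes share their sequence or overlap their exons.

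The serum response factor binds a CArG box, which is CC, a run of A or T bases, and GG. This motif was looked for after the values had been seen, on both strands of the RefSeq promoter windows (GRCm38.p6, 250 bases before to 50 after a start). It was present in 6 of the 76 lower genes with a window (7.895%), in 1 of 79 higher genes (1.266%) and in 1.514% of 9445 tested genes. The lower genes were Actg1, Rhoj, Rnf128, Tiam1, Vcl and Vma21. A match is a description of the letters and not a measured binding site. The bases before the start of Vcl (chr14:20929148-20929397, plus strand) and Actg1 (chr11:120348496-120348745, minus strand) are shown because both genes fell, with the CArG box in capitals, which begins 227 and 90 bases before the start.
Vcl: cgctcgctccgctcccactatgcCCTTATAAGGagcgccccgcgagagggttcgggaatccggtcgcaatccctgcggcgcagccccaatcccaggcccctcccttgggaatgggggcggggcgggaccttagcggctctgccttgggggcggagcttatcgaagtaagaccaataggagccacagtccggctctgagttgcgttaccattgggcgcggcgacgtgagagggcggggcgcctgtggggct
Actg1: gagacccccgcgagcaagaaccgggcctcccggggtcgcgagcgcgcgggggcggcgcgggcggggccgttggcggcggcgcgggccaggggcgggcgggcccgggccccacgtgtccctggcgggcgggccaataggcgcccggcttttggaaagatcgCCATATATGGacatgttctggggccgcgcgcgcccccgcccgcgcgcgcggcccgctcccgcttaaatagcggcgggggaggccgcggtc

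Rhoj and Tiam1, which encode a Cdc42-like GTPase and an activator of Rac, were among these genes. Rhoj stood at 283 and 319 in WT and at 120 and 142 in WKO (log2 fold change -1.19, adjusted p = 0.0272). Tiam1 had 376 and 302 in WT and 178 and 124 in WKO (log2 fold change -1.18, adjusted p = 0.0385). Piezo1, which encodes a stretch-gated cation channel, fell from 8685 and 7297 to 5474 and 5013 (log2 fold change -0.60, SE 0.116, adjusted p = 0.0333). Rhoj, Tiam1 and Piezo1 were chosen after their values had been seen.

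Of 14 tested genes for intermediate filaments, lamins and cytolinkers, 1 fell (Nes) and 1 rose (Dst), against 0.756% and 0.899% of all genes, and the other 12 did not pass. Nes (chr3:87971078-87980451, plus strand), for the filament protein nestin, stood at 1841 and 1582 in WT and at 511 and 478 in WKO, or 28.9% of WT (log2 fold change -1.79, SE 0.136, adjusted p = 2.6e-04). Dst, for the linker dystonin that ties filaments to actin and microtubules, rose from 237 and 159 to 460 and 491 (log2 fold change 1.29, SE 0.215, adjusted p = 0.0232). Without WKO replicate 1 or without WKO replicate 3, Nes passed and Dst did not, while 3 genes fell and 2 rose without WT replicate 1, and 4 fell and 1 rose without WT replicate 3. Vim, for vimentin, the main filament of macrophages, had 43136 and 41669 in WT and 30887 and 31500 in WKO but did not pass (log2 fold change -0.44, adjusted p = 0.0591). Lmna, for the nuclear lamins A and C, was similar in this respect, at 4198 and 4585 in WT and 3251 and 3064 in WKO (adjusted p = 0.0597). Reads of Dst may be shared with an overlapping gene.

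**Figure D2:**
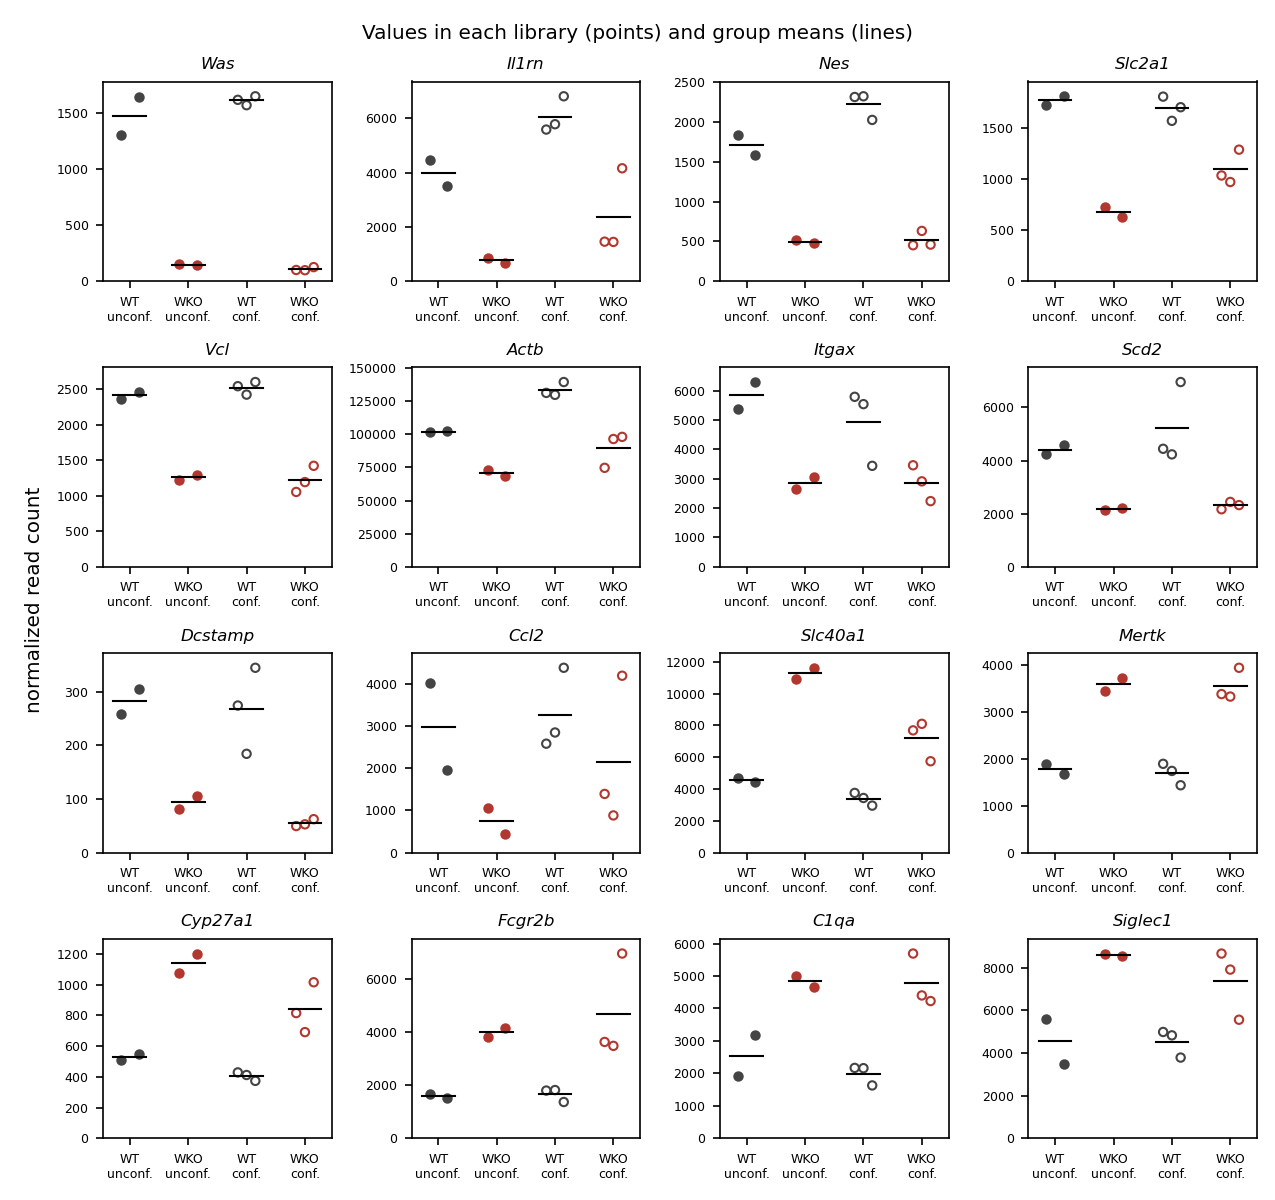
Normalized read count (y) of 16 genes in all 10 libraries, with WT in grey, WKO in red, unconfined cells as filled and confined cells as open points, and group means as lines. In unconfined cells the 2 WKO points lie apart from the 2 WT points in every panel. All 16 genes had passed the test, and 44.8% of all tested genes do not overlap, so this is no separate support. In Il1rn, Ccl2 and Fcgr2b a confined WKO library departs from the other 2.

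Genes of glucose uptake and glycolysis shifted to lower values, although few passed alone. Of 39 tested genes of glycolysis and the hypoxia response, 2 fell and 0 rose, against 0.756% and 0.899% of all genes. The lower mean was in WKO for 34 of them, and the median was -0.32 against 0.00 over all genes. Slc2a1 (chr4:119108711-119137983, plus strand), which encodes the glucose transporter GLUT1, stood at 1731 and 1813 in WT and at 729 and 626 in WKO, which is 38.2% of WT (log2 fold change -1.39, SE 0.131, adjusted p = 0.00106). Both WKO values lay far below both WT values, and its counts are uncertain because another gene overlaps its exons. Eno2, for an enolase isoform, fell from 338 and 352 to 172 and 180 (log2 fold change -0.97, SE 0.185, adjusted p = 0.0329). Slc16a3, for the lactate exporter MCT4, had 1457 and 1024 in WT and 736 and 475 in WKO and lay just outside the threshold (log2 fold change -1.05, adjusted p = 0.0509). Mif, for a cytokine whose gene responds to hypoxia, also lay outside, with 1528 and 1886 in WT and 1155 and 997 in WKO (adjusted p = 0.0527).

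The abundant enzymes of the pathway shifted by less. Eno1, for the main enolase, had a log2 fold change of -0.48 (adjusted p = 0.096), Ldha, for lactate dehydrogenase, of -0.38 (adjusted p = 0.116), Pkm, for pyruvate kinase, of -0.36 (adjusted p = 0.129), and Pgk1, for phosphoglycerate kinase, of -0.36 (adjusted p = 0.216). For each of these 4 both WKO values lay below both WT values, but the genotypes did not overlap in 44.8% of all tested genes either. Each of the 4 shares sequence with copies elsewhere in the genome. Hk2, for an inducible hexokinase, stood at 766 and 750 in WT and 606 and 490 in WKO (adjusted p = 0.178). The count of genes that fell was 1 without either WKO library, 6 without WT replicate 1 and 17 without WT replicate 3, while the median stayed between -0.39 and -0.23 over these 4 fits. Slc2a1 passed in each of them.

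The hypoxia-inducible factors bind the letters ACGTG, which also lie inside the E-box CACGTG. Searched on both strands, they were present in the promoter windows of 27 of 38 matched genes of the glycolysis and hypoxia list (71.05%), against 29.68% of tested genes and 21.78% of the 27025 genes of the promoter table. That list was made of hypoxia response genes, so its high share says nothing about WKO. It also had more windows per gene, 1.474 against 1.274 for tested genes. ACGTG was present in 27.63% of the lower genes (21 of 76), near the share of tested genes, and in 17.72% of the higher genes (14 of 79). A match here too is a description of the letters. The bases before the start of the transporter genes Slc2a1 (chr4:119108495-119108744, plus strand) and Slc16a3 (chr11:120948817-120949066, plus strand) are shown because these genes had the most negative changes of the list, with ACGTG in capitals; it begins 36 bases before the start of Slc2a1 and 27 and 14 bases before that of Slc16a3.
Slc2a1: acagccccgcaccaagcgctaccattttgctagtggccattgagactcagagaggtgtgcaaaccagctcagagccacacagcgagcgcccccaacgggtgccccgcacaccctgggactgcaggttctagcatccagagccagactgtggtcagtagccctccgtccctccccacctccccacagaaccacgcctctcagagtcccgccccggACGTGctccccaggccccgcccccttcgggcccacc
Slc16a3: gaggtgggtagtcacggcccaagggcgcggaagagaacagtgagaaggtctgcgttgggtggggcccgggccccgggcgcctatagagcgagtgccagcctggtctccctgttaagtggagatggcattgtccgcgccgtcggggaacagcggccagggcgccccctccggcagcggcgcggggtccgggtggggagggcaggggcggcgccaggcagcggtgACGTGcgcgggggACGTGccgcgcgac

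Sterol and fatty acid synthesis genes shifted to lower values in WKO. Of 29 tested genes, 5 fell and 0 rose, against 0.756% and 0.899% of all genes. The lower mean was in WKO for 28, and the median of -0.53 was the lowest of the function lists compared here. Scd2, for a desaturase that makes monounsaturated fatty acids, stood at 4246 and 4568 in WT and at 2154 and 2209 in WKO, or 49.5% of WT (log2 fold change -1.01, SE 0.105, adjusted p = 0.00196). Fasn, for fatty acid synthase, fell from 2130 and 1971 to 1366 and 1294 (log2 fold change -0.62, SE 0.115, adjusted p = 0.031). For both genes the genotypes differed by more than the replicates did, which the test already measures.

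In the sterol branch, Sqle, for squalene epoxidase, fell from 2439 and 1834 to 1291 and 1316 (adjusted p = 0.0456). Cyp51, for lanosterol demethylase, fell from 1582 and 1596 to 1060 and 977 (adjusted p = 0.0313). Hmgcs1 and Idi1, for enzymes of the same branch, had log2 fold changes of -0.54 and -0.86 and lay outside the threshold, with adjusted p of 0.0714 and 0.0806. Srebf2, for the factor that switches on these genes, changed little, with 4278 and 4094 in WT and 3787 and 3396 in WKO (log2 fold change -0.22, adjusted p = 0.399). Leaving out WKO replicate 3 left 0 genes of the list below the threshold and leaving out WKO replicate 1 left 1, against 5 without WT replicate 1 and 14 without WT replicate 3. The median stayed between -0.59 and -0.40. Reads of Scd2, Cyp51, Hmgcs1 and Idi1 may be shared with similar or overlapping genes.

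Stress and amino acid response genes showed no call. Among 21 tested targets of ATF4, 0 passed in either direction and the median was -0.25. Asns, for asparagine synthetase, had 424 and 319 in WT and 237 and 201 in WKO (log2 fold change -0.75, adjusted p = 0.122). Mthfd2, for a mitochondrial folate enzyme, had 502 and 482 in WT and 345 and 211 in WKO (log2 fold change -0.87, adjusted p = 0.106). Among 21 cytosolic heat shock genes 19 had the lower mean in WKO, with 0 passing and a median of -0.17, and of 23 Nrf2 targets 0 passed, with a median of -0.20. Without WT replicate 1, 2 ATF4 targets, 1 heat shock gene and 4 Nrf2 targets fell. Without WT replicate 3, 4 ATF4 targets and 2 heat shock genes fell and 1 Nrf2 target rose, and 0 genes of these lists passed without either WKO library.

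The interleukin-1 receptor antagonist fell in WKO, and its change was the most negative of the interleukin-1 and inflammatory lists. Il1rn (chr2:24336853-24351494, plus strand), which encodes the natural inhibitor of interleukin-1 signalling, stood at 4455 and 3515 in WT and at 863 and 673 in WKO, or 19.3% of WT (log2 fold change -2.37, SE 0.157, adjusted p = 1.19e-04). Of the 17 tested genes of the interleukin-1 family it was the only 1 that passed, against 1.66% of all genes. Il1b itself was low in all 4 libraries, with 13.3 and 21.1 in WT and 18.7 and 32.0 in WKO, where 3 reads correspond to about 3 (adjusted p = 0.762).

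Inflammatory cytokines and NF-kB targets gave 2 lower and 0 higher genes of 34, against 0.756% and 0.899% of all genes, with a median of -0.04. Ccl2, for the chemokine that recruits monocytes, had 4018 and 1947 in WT and 1066 and 429 in WKO (log2 fold change -2.05, SE 0.394, adjusted p = 0.0339 with limma and 0.052 with edgeR). Its replicates differed widely within each genotype. Ccl9, for a chemokine that macrophages make at rest, fell from 12833 and 12629 to 7815 and 8086 (log2 fold change -0.68, SE 0.096, adjusted p = 0.01). Tnf had 71 and 69 in WT and 33 and 124 in WKO, with overlapping genotypes (adjusted p = 0.94). Without WKO replicate 3 none of the list passed, and 6 fell and 2 rose without WT replicate 3.

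Of 32 early response genes 1 rose (Ier3) and 1 fell (Dusp4), against 0.899% and 0.756% of all genes, and the other 30 did not pass. Dusp4, for a phosphatase that shuts off ERK, fell from 707 and 726 to 330 and 325 (log2 fold change -1.13, SE 0.148, adjusted p = 0.00672). Ier3 rose from 87 and 76 to 199 and 287 (log2 fold change 1.54, adjusted p = 0.024). Egr2 and Myc had lower means in WKO but wide WKO values, at 682 and 387 for Egr2 (898 and 1200 in WT, adjusted p = 0.0788) and at 430 and 171 for Myc (587 and 644 in WT, adjusted p = 0.136). Without WT replicate 1, 9 genes of the list fell and 5 rose, without WT replicate 3, 3 fell and 3 rose, without WKO replicate 1, 3 fell and 0 rose, and without WKO replicate 3 none passed.

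Of 28 tested genes linked to macrophage fusion and to osteoclasts, 5 fell and 0 rose, against 0.756% and 0.899% of all genes. The lower mean was in WKO for 25 of them, with a median of -0.33. They include Il1rn, given above. Dcstamp, for the membrane protein that cell fusion needs, stood at 259 and 304 in WT and at 82 and 106 in WKO (log2 fold change -1.58, SE 0.237, adjusted p = 0.0141). Tm4sf19, for a tetraspanin-like protein of multinucleate cells, fell from 362 and 329 to 97.7 and 100.1 (log2 fold change -1.79, SE 0.207, adjusted p = 0.00356). Ckb, for brain creatine kinase, fell from 5879 and 7688 to 3838 and 3420 (adjusted p = 0.0155), and Cd9, for a tetraspanin of the cell surface, from 9131 and 9504 to 6203 and 5813 (adjusted p = 0.0172). Ctsk, for the bone-resorbing protease cathepsin K, did not pass, with 308 and 342 in WT and 167 and 214 in WKO (adjusted p = 0.104). The count of lower genes was 1 without WKO replicate 3, 2 without WKO replicate 1, 7 without WT replicate 1 and 12 without WT replicate 3.

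Of 26 matrix protease and inhibitor genes, 2 fell and 1 rose, against 0.756% and 0.899% of all genes. Mmp12, for the macrophage elastase, stood at 82955 and 76450 in WT and at 41162 and 42276 in WKO (log2 fold change -0.93, SE 0.104, adjusted p = 0.00299). The gelatinase gene Mmp9 had 3838 and 1605 in WT and 1458 and 1162 in WKO and did not pass (adjusted p = 0.201). Plau, for the urokinase activator, had 18659 and 15472 in WT and 11850 and 7878 in WKO (log2 fold change -0.81, adjusted p = 0.0525). Without WT replicate 1, 4 fell and 3 rose, without WT replicate 3, 7 fell and 4 rose, without WKO replicate 1, 1 fell and 0 rose, and without WKO replicate 3 none passed.

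The remaining lower genes with the largest changes belong to several functions. Mamdc2, for a secreted matrix protein, fell from 1334 and 1008 to 173 and 156 (log2 fold change -2.81, SE 0.18, adjusted p = 1.19e-04). Eef1a2, for an elongation factor isoform, fell from 92 and 156 to 14.8 and 17.6 (log2 fold change -2.82, adjusted p = 0.0131). Lat, for an adaptor of immune receptors, stood at 188 and 217 in WT and at 40.4 and 42.3 in WKO (log2 fold change -2.26, adjusted p = 0.00525). Hbegf, for a growth factor of the EGF family, stood at 224 and 225 in WT and at 76 and 57 in WKO (log2 fold change -1.76, adjusted p = 0.0131). Cd200, for a ligand that restrains myeloid cells, fell from 335 and 311 to 110.5 and 85.7 (log2 fold change -1.72, adjusted p = 0.00672).

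Tmem267 had the most negative fitted change, from 192 and 110.4 to 21.7 and 8.3 (log2 fold change -3.34, SE 0.507, adjusted p = 0.0152). In confined cells the genotypes overlapped, with 175, 198 and 30.5 in WT and 2.4, 9.5 and 158 in WKO, the last in replicate 5 (log2 fold change -2.54, adjusted p = 0.411; -4.12 and 0.025 without that library). Chst11, for a chondroitin sulfotransferase, chosen after its values were seen, fell from 2266 and 2549 to 1010 and 972 (log2 fold change -1.28, SE 0.119, adjusted p = 0.00106). Gpc1, for a heparan sulfate proteoglycan, likewise chosen, fell from 885 and 1083 to 451 and 442 (log2 fold change -1.13, adjusted p = 0.00695). Alas1, which starts haem synthesis, also chosen after its values were seen, fell from 5956 and 6627 to 3569 and 3581 (log2 fold change -0.81, SE 0.104, adjusted p = 0.00632).

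**Figure D3:**
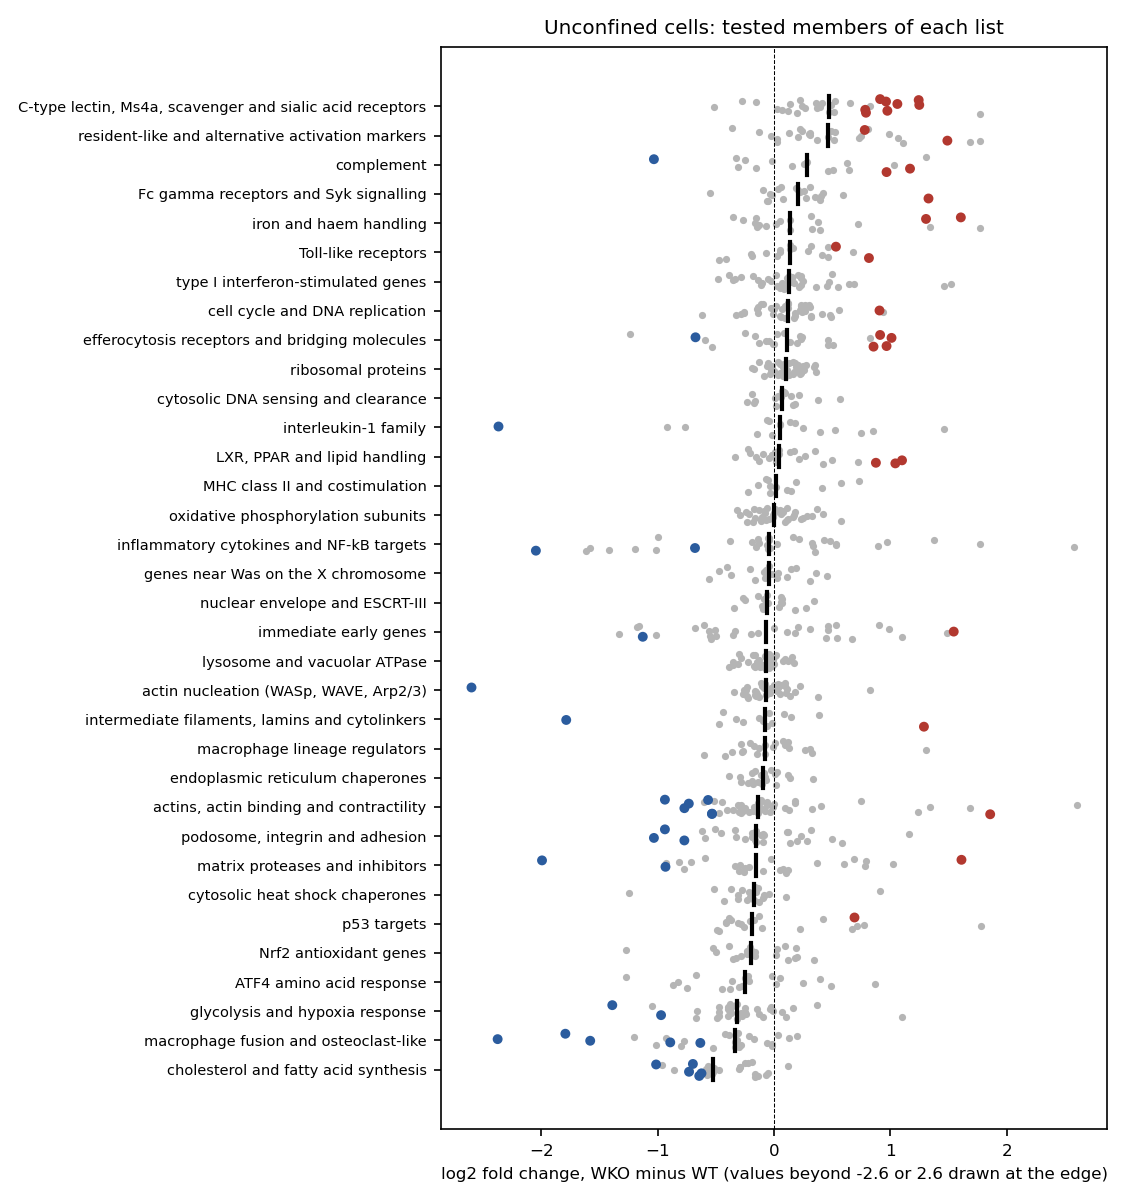
Each point is a tested member of a gene list, with its log2 fold change in unconfined cells (x, WKO minus WT, with values beyond the axis such as Was drawn at its edge); red and blue points passed the test, grey points did not, black bars are list medians and the dashed line is the median of all genes. Medians run from -0.53 for cholesterol and fatty acid synthesis to 0.48 for the receptors of the C-type lectin, Ms4a, scavenger and sialic acid groups. That receptor list and the list of actins, actin binding and contractility were put together after the values had been seen.

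Markers of other cell types were higher in WKO, and this is given before the higher genes because it runs alongside them. Of 15 neutrophil and granule genes all 15 had the higher mean and 7 passed, with a median of 1.57 on the log2 scale, against 0.899% of all genes that rose. Their summed normalized read count was 9091 and 12538 in WT and 34465 and 28212 in WKO. S100a9, for a calcium-binding alarmin, stood at 1297 and 2247 in WT and 6919 and 6072 in WKO (log2 fold change 1.92, SE 0.21, adjusted p = 0.00254), and Ltf, for the granule protein lactoferrin, at 2418 and 2462 against 7864 and 6282 (log2 fold change 1.53, SE 0.123, adjusted p = 3.99e-04). Ly6g, a defining neutrophil marker, was low, with 24.7 and 9.6 in WT and 60.2 and 75.4 in WKO (adjusted p = 0.0977). In confined cells the sum was between 3188 and 9969 in WT and was 25333, 32030 and 8810 in WKO replicates 1, 2 and 5. Between 3 genes (without either WKO library) and 11 genes (without WT replicate 3) of this list rose when a library was left out, and 10 rose without WT replicate 1.

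Immunoglobulin transcripts rose in WKO. Ighm, for the heavy chain of IgM, stood at 728 and 692 in WT and at 4235 and 3942 in WKO (log2 fold change 2.52, SE 0.114, adjusted p = 1.27e-05), and Igkc, for the kappa constant region, at 234 and 174 against 1057 and 1134 (log2 fold change 2.44, SE 0.178, adjusted p = 2.52e-04). Of 393 listed immunoglobulin segments 65 reached the mean of 10, some of them only through the WKO libraries, so that no count over them is read. Igkv4-59 was at 0 and 3.8 in WT, which is 0 and 4 reads, and at 386 and 365 in WKO, and Ighv5-12 was at 0 and 1.9 against 194.4 and 194.1. Igkv4-59 is near-identical to another V segment, so its identity is uncertain. Cd79a, for a chain of the B cell receptor complex, overlapped between the genotypes, with 1.9 and 25.9 in WT and 16.8 and 5.2 in WKO (adjusted p = 0.952). Jchain, expressed by plasma cells, rose from 146 and 91 to 365 and 305 (adjusted p = 0.0241). The summed level of the B lineage list was 1645 and 1551 in WT and 6535 and 6096 in WKO. In confined WKO cells it was 7365, 5384 and 2345 in replicates 1, 2 and 5, against 775 to 1396 in WT.

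All 13 tested stromal genes had the higher mean in WKO, and Bgn, Acta2 and Cxcl12 passed, against 0.899% of all genes that rose. Cxcl12, for the chemokine of marrow stroma, stood at 8.6 and 28.8 in WT and at 96.7 and 107.4 in WKO (log2 fold change 2.61, SE 0.541, adjusted p = 0.0453 with limma and 0.058 with edgeR). Col1a1, for type I collagen, had 285 and 602 in WT and 640 and 785 in WKO (adjusted p = 0.256). The stromal sum was 1030 and 2079 in WT and 2910 and 3505 in WKO. Without either WKO library 0 genes of this list rose, against 4 without WT replicate 1 and 8 without WT replicate 3. Ly6c2, for a monocyte surface protein, rose from 103 and 144 to 411 and 267 (adjusted p = 0.031), while Ccr2, for the receptor of Ccl2, overlapped between genotypes, with 198 and 378 in WT and 391 and 187 in WKO (adjusted p = 0.991). The sum of 5 monocyte genes was 541 and 807 in WT and 1396 and 947 in WKO. No dendritic, T and NK, mast or megakaryocyte marker passed among 4, 1, 2 and 4 tested genes.

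Of the 113 higher genes, 27 are listed markers of other cells or immunoglobulin segments and 86 are not. Segments near 0 in WT entered the test through the WKO libraries and could only be called higher. The share of such markers over all tested genes was not counted, so the 27 are not read as a contrast with the 95 lower genes. The macrophage marker sum differed less, with 266951 and 280262 in WT and 299783 and 309283 in WKO. In bulk RNA, more cells of a type and more RNA per cell of that type cannot be told apart. The part of such cells in the remaining 86 higher genes was not tested.

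**Figure D4:**
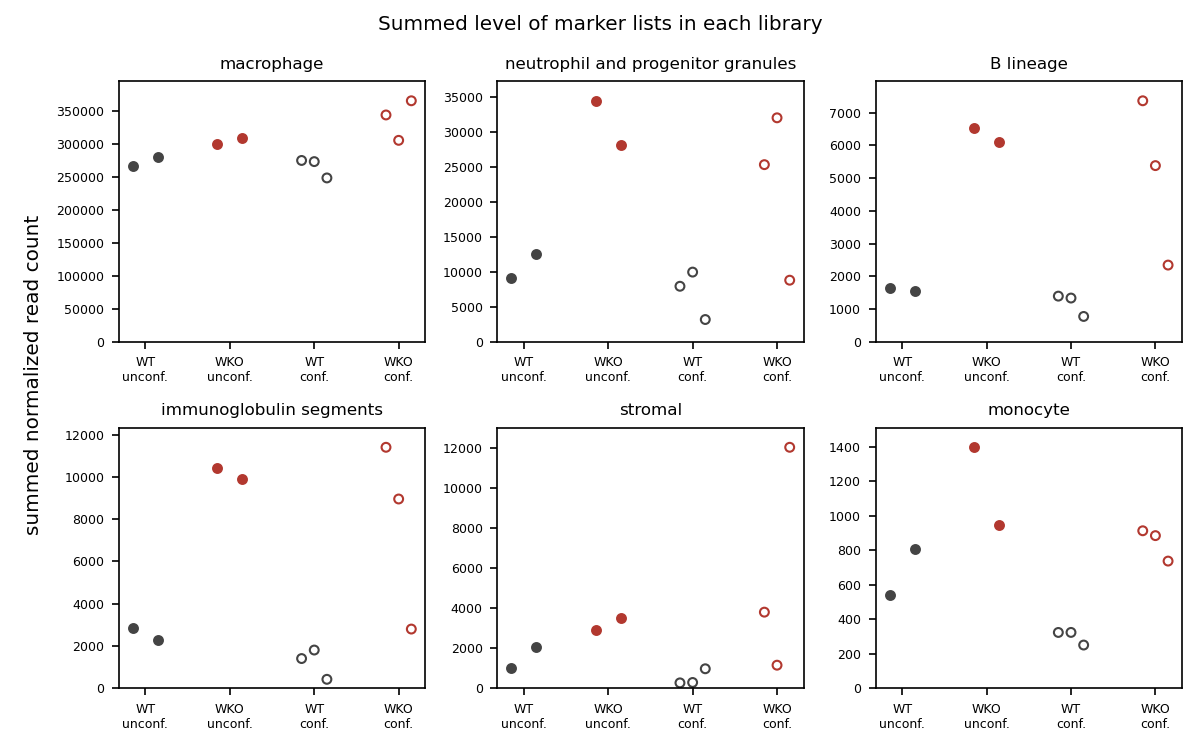
Summed normalized read count (y) of 6 marker lists in each library, with WT in grey, WKO in red, unconfined cells as filled and confined cells as open points. The neutrophil sum reached 34465 and 28212 in unconfined WKO against 9091 and 12538 in WT, and the stromal sum was highest, at 12047, in confined WKO replicate 5.

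The iron exporter gene rose in WKO. Slc40a1 (chr1:45908068-45926523, minus strand), which encodes ferroportin, the exporter that releases recycled iron, stood at 4664 and 4457 in WT and at 10920 and 11629 in WKO, or 247% of WT (log2 fold change 1.31, SE 0.0994, adjusted p = 2.6e-04). It passed in the shared fit over 10 libraries (adjusted p = 0.0087) and in all 4 fits without a library. Spic, for the factor that marks red pulp macrophages, rose from 70 and 44 to 150 and 196 (log2 fold change 1.60, SE 0.316, adjusted p = 0.0368). Among 20 tested iron and haem genes 2 rose and 0 fell, against 0.899% and 0.756% of all genes, with a median of 0.13. Hmox1, for the oxygenase that opens haem, was level, with 9833 and 9193 in WT and 9563 and 9683 in WKO (log2 fold change 0.02, adjusted p = 0.963). Cd163, for the receptor that takes up haemoglobin, had 103 and 34 in WT and 198 and 208 in WKO and did not pass (log2 fold change 1.77, adjusted p = 0.0866). Hfe, for a regulator of iron uptake, had 781 and 1046 in WT and 1437 and 1536 in WKO (adjusted p = 0.0525). The count of risen genes was 1 without either WKO library and 6 without either WT library, and 1 gene fell without WT replicate 3.

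Of 26 tested efferocytosis genes 4 rose and 1 fell, against 0.899% and 0.756% of all genes, and 11 had the lower mean in WKO, with a median of 0.11. Mertk, for the tyrosine kinase that binds coated dead cells, stood at 1893 and 1680 in WT and at 3455 and 3731 in WKO, or 201% of WT (log2 fold change 1.01, SE 0.114, adjusted p = 0.0031). Axl, for its relative, rose from 1136 and 1655 to 2277 and 2702 (log2 fold change 0.85, SE 0.173, adjusted p = 0.0418 with limma and 0.058 with edgeR). Stab2, for a scavenger receptor that also binds phosphatidylserine, rose from 573 and 419 to 801 and 1062 (adjusted p = 0.0487 with limma and 0.055 with edgeR). Mfge8, for a secreted bridge from phosphatidylserine to integrins, fell from 6619 and 7295 to 4287 and 4418 (log2 fold change -0.68, SE 0.103, adjusted p = 0.0154). Gas6, for the ligand that bridges to Mertk and Axl, had 7140 and 6489 in WT and 9102 and 9661 in WKO (log2 fold change 0.46, adjusted p = 0.0585). Trem2, for a lipid-sensing receptor, was level (13143 and 13574 in WT, 13437 and 13791 in WKO, adjusted p = 0.933). Without WKO replicate 3, 0 genes of the list rose, and without WKO replicate 1 only Mertk did so, against 6 without WT replicate 1 and 9 without WT replicate 3. Of this list 3 genes fell without WT replicate 1, 2 without WT replicate 3 and 0 without either WKO library.

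Of 18 complement genes 2 rose and 1, Itgax, fell, against 0.899% and 0.756% of all genes. C1qa, for a chain of the C1q recognition protein, rose from 1927 and 3171 to 5006 and 4662 (log2 fold change 0.97, SE 0.192, adjusted p = 0.0385 with limma and 0.063 with edgeR). Its partner chains C1qb and C1qc had log2 fold changes of 0.47 and 0.51 and did not pass (adjusted p = 0.173 and 0.197). For all 3 chains WT replicate 3 was above WT replicate 1. C3, the central complement protein, rose from 369 and 576 to 1258 and 854 (log2 fold change 1.17, adjusted p = 0.0395 with limma and 0.054 with edgeR). Without either WKO library 0 genes of the list passed, and 4 rose without either WT library, beside 2 that fell without WT replicate 1 and 3 without WT replicate 3.

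Some genes for inhibitory and lectin receptors were higher in WKO. Fcgr2b, for the inhibitory IgG receptor, stood at 1676 and 1516 in WT and at 3822 and 4163 in WKO, or 250% of WT (log2 fold change 1.32, SE 0.113, adjusted p = 5.88e-04). It was the 1 gene of 21 Fc receptor and Syk genes that passed, against 1.66% of all genes. B cells also express Fcgr2b, and their part in its rise was not tested. In confined WKO cells it stood at 3624, 3476 and 6947 in replicates 1, 2 and 5. Fcgr3, for an activating receptor with shared sequence, had 6135 and 8021 in WT and 8861 and 9092 in WKO (log2 fold change 0.36, adjusted p = 0.242).

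A list of C-type lectin, Ms4a, scavenger and sialic acid receptors was put together after the values had been seen. Of its 31 tested genes 8 rose and 0 fell, against 0.899% and 0.756% of all genes. The higher mean was in WKO for 28, and the median was 0.48. Because the list was chosen with the values known, these counts do not support a higher group. Siglec1, for the sialic acid receptor CD169, rose from 5588 and 3484 to 8654 and 8535 (log2 fold change 0.96, SE 0.182, adjusted p = 0.0323). Ms4a4a rose from 458 and 432 to 998 and 1119 (log2 fold change 1.25, SE 0.14, adjusted p = 0.00302) and Slco2b1, for an organic anion transporter kept with this list, from 603 and 751 to 1425 and 1784 (log2 fold change 1.24, adjusted p = 0.00625). Clec4a1 and Clec4a3, for lectins of the DCIR family, rose by 0.97 and 0.78 on the log2 scale (adjusted p = 0.00925 and 0.0244), and Cd33, for another sialic acid receptor, by 0.79 (adjusted p = 0.0329). Ly86, for the protein MD-1, and Tlr8, for a sensor of RNA, were the 2 of 19 Toll-like receptor genes that passed, against 1.66% of all genes. Ly86 stood at 858 and 842 in WT and 1408 and 1589 in WKO (adjusted p = 0.0162). Tlr8 stood at 3436 and 3480 in WT and 4823 and 5179 in WKO (adjusted p = 0.0337). Without WKO replicate 3, 0 genes of the receptor list rose, 3 did so without WKO replicate 1, 11 without WT replicate 1 and 14 without WT replicate 3.

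Lipid handling genes rose in 3 of 25 cases and fell in 0, against 0.899% and 0.756% of all genes, with a median of 0.05. Cyp27a1, for the enzyme that makes 27-hydroxycholesterol, stood at 510 and 550 in WT and at 1073 and 1202 in WKO (log2 fold change 1.10, SE 0.137, adjusted p = 0.00563), and it passed in the shared fit over 10 libraries (adjusted p = 0.043). Abca9 and Abcd2, for lipid transporters, rose from 530 and 367 to 812 and 1017 and from 315 and 352 to 643 and 582 (adjusted p = 0.0315 and 0.0292). Abca1, the cholesterol exporter and best known LXR target, had 8179 and 9296 in WT and 10596 and 12822 in WKO (log2 fold change 0.42, adjusted p = 0.138). Apoe had a low WT replicate, with 26836 and 53140 in WT and 61350 and 63162 in WKO (log2 fold change 0.72, adjusted p = 0.203). Without either WKO library 0 of these genes rose, against 4 without WT replicate 1, where 1 fell, and 6 without WT replicate 3.

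Markers of resident and alternatively activated macrophages had the higher mean in 24 of 27 cases, with a median of 0.46. Of these 27, 2 rose and 0 fell, against 0.899% and 0.756% of all genes. Selenop, for a secreted selenium carrier, stood at 31103 and 31084 in WT and at 50038 and 56888 in WKO (log2 fold change 0.78, SE 0.107, adjusted p = 0.00859). Chil3, for the secreted lectin Ym1, rose from 1810 and 2632 to 6464 and 5808 (log2 fold change 1.49, SE 0.162, adjusted p = 0.00254). Neutrophil precursors also make Chil3, and their part in its rise was not tested. In confined WKO cells it stood at 5184, 5720 and 1431 in replicates 1, 2 and 5. Mrc1, for the mannose receptor, had 16130 and 15742 in WT and 17280 and 20605 in WKO (log2 fold change 0.24, adjusted p = 0.37), and Folr2, for a folate receptor of resident cells, had 3304 and 3478 in WT and 3760 and 4087 in WKO (adjusted p = 0.418). Arg1 was low in all 4 libraries, between 8.6 and 50.3. Leaving out either WKO library left 1 gene, and leaving out WT replicate 1 or 3 gave 8 or 7 risen genes, with 1 fallen without WT replicate 1.

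Interferon, DNA-sensing and nuclear envelope genes gave no call in unconfined cells. Of 41 interferon-stimulated genes, 17 genes of cytosolic DNA sensing and clearance, and 19 nuclear envelope and ESCRT-III genes, 0 passed in either direction, with medians of 0.13, 0.07 and -0.06. Isg15 had 47.5 and 69.1 in WT and 66.1 and 58.8 in WKO (adjusted p = 0.918), and Cgas, for the sensor of cytosolic DNA, 288 and 216 against 267 and 183 (adjusted p = 0.82). Sting1, its downstream adaptor, had 560 and 459 in WT and 487 and 595 in WKO (adjusted p = 0.876). Lists for endoplasmic reticulum chaperones, MHC class II, lineage regulators, the lysosome, oxidative phosphorylation and ribosomal proteins also gave 0 calls among 22, 13, 22, 36, 39 and 45 genes, and so did 19 genes near Was on the X chromosome. The ribosomal protein median of 0.10 turned to -0.10 without WT replicate 1, where 1 of these genes fell, and 14 rose without WT replicate 3. Without WT replicate 1, 6 lineage regulators and 3 MHC class II genes fell. Without WT replicate 3, 2 lineage regulators rose and 2 fell, 2 lysosome genes rose and 3 fell, 2 oxidative phosphorylation genes and 1 MHC class II gene rose, and 2 interferon-stimulated genes rose and 1 fell. The medians of the MHC class II, lineage regulator and oxidative phosphorylation lists, and that of the interferon-stimulated genes, turned in sign with a library left out. The cell cycle gave 1 higher gene of 44, Hmgb2, for a chromatin protein, at 623 and 816 in WT and 1235 and 1435 in WKO (adjusted p = 0.0272). The p53 targets gave 1 of 20, Trp53inp1, at 968 and 916 against 1439 and 1604 (adjusted p = 0.0289). Of all tested genes 0.899% were higher. Without WT replicate 3, 8 cell cycle genes rose and 1 fell, and 0 did so without WKO replicate 3. A p that misses the threshold with 2 libraries a group does not show that these genes are alike.

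The same genes were then read in the 6 confined libraries, which share no library with the unconfined comparison. Whether they share mice or cultures with it is not given. Igkv4-59 had 391 and 354 reads in unconfined WKO, and 527, 178 and 0 in confined WKO replicates 1, 2 and 5. Ighv5-12 had 197 and 188 reads, and 233, 75 and 0. A common source of these libraries was not tested, so equal directions are not read as separate replication. In confined cells 118 of 12381 tested genes passed (0.953%) and 2620 (21.2%) did not overlap. Of the 208 genes, 205 were tested and 202 changed in the same direction, 55 of them past the threshold and 138 without overlap. The 110 higher genes had a median change of 1.32 in unconfined and 1.28 in confined cells, and the 95 lower genes of -0.93 and -0.73; without confined WKO replicate 5 the confined medians were 1.36 and -0.78. The number past the threshold was 123 without confined WKO replicate 5 and 77 without WKO replicate 1, and it was 25 without WKO replicate 2 and 4, 9 and 10 without WT replicates 2, 3 and 6. The interaction of genotype with confinement was past the threshold for 0 of 12455 genes (limma over 10 libraries; 258 had an unadjusted p under 0.05), and was not refitted without WKO replicate 5.

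Among single genes, Nes stood at 2315, 2324 and 2027 in confined WT and at 450, 631 and 459 in confined WKO (log2 fold change -2.13, adjusted p = 0.0013; -2.05 and 2.78e-04 without WKO replicate 5). Mertk had 1896, 1744 and 1438 in WT and 3386, 3333 and 3948 in WKO (adjusted p = 0.014; 0.00497 without that library). Vcl, at 2543, 2425 and 2602 against 1054, 1193 and 1422, kept the separation seen in unconfined cells (log2 fold change -1.05, adjusted p = 0.014; -1.17 and 0.00101 without it). Slc40a1 had 3754, 3435 and 2954 in WT and 7691, 8102 and 5748 in WKO (adjusted p = 0.021; 0.00101 without it). Slc2a1 stood there at 1809, 1572 and 1706 in WT and 1036, 972 and 1289 in WKO (log2 fold change -0.63, adjusted p = 0.07; -0.75 and 0.0103 without it). Il1rn had 1453 and 1443 in WKO replicates 1 and 2 but 4158 in replicate 5, against 5586 to 6812 in WT (log2 fold change -1.55, adjusted p = 0.085; -2.06 and 3.64e-05 without it). Hbegf, lower in unconfined WKO cells, had 162, 181 and 296 in confined WT and 151, 154 and 482 in confined WKO, so that its log2 fold change was 0.13 with WKO replicate 5 and -0.43 without it (adjusted p = 0.93 and 0.50). Rgs16, also lower in unconfined WKO cells, had log2 fold changes of 0.42 and 0.04 with and without that library (adjusted p = 0.78 and 0.98). The adhesion gene Itga5, lower in unconfined WKO cells, likewise had 0.14 with that library and -0.39 without it (limma, adjusted p = 0.92 and 0.41).

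**Figure D5:**
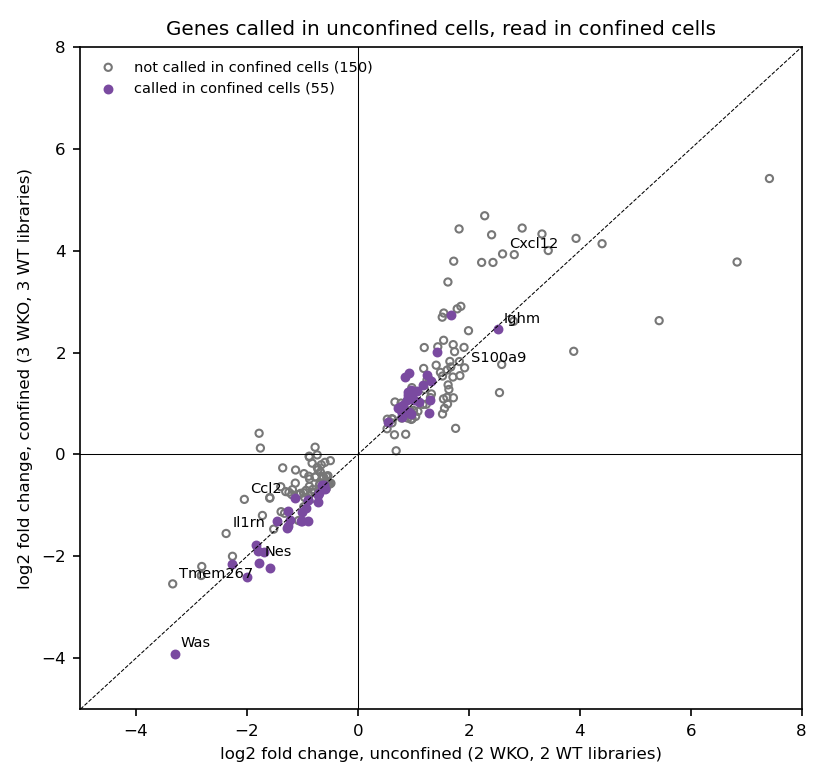
Log2 fold change, WKO minus WT, of the 205 genes called in unconfined cells and tested in both conditions: unconfined cells (x, 2 against 2 libraries) and confined cells (y, 3 against 3 libraries), with the line of equality dashed. Filled points are the 55 genes that also passed in confined cells, and 202 points lie in the quadrants of equal sign.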

How the data were processed

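Per the submitters' processing notes, reads were handled with FastQC, Trim Galore and STAR on GRCm38 (mm10); the counter, annotation and strand setting are not given in the sources used here. The authors deposited a signal per gene and library, a normalized read count. Every value was a whole multiple of what 1 read is worth in its library (tolerance 1e-06, 100% of values), so whole reads were recovered by division. Such scaling leaves differences in composition, GC content and length. At this depth 3 reads, the floor, equal a value of 2.85 to 3.10 in the unconfined libraries, counting error only.

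Values were tested as log2(value + 1) with limma 3.58.1 in R 4.3.3, 1 mean per genotype, 4 unconfined libraries (2 residual and 7.86 prior degrees of freedom), empirical Bayes with a mean-variance trend, two-sided, Benjamini-Hochberg adjusted, threshold 0.05. The spread was not shared with confined WKO libraries because it is wider there (median SD 0.267). Fold changes on this scale understate the change of low genes. The 6 confined libraries were fitted alike and alone. Alternatives were edgeR 4.0.16 and DESeq2 1.42.0 on recovered reads, scalings, pseudocounts 0.5 and 5, other filters on the mean value, GC content and length, a replicate block and left-out libraries. Only the limma fit of the 4 unconfined libraries was run on simulated counts with known changes, and the other fits were not.

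Symbols came from the deposited table (33149) or GENCODE M21 (20029); 3832 identifiers have none. Named genes were Was, up to 15 per direction with the largest change among called genes that averaged 50 or more and did not overlap, and up to 4 per list by smallest p; a part is described. Of 198 genes carried through the alternatives, 92 fall under this rule and 106 were chosen after their values were seen. The lists and the comparison were chosen with earlier results of these data known. Shared sequence was checked with blastn 2.17.0 (another gene covering at least 20% of the longest transcript): 33 named genes share sequence and 46 overlap an exon of another gene, and their counts are uncertain. Beside the genes marked above, these include Mmp12, Ckb, Cd9, Piezo1, Gpc1, Alas1, Lat, Tmem267, Slco2b1, Selenop, Stab2, Hmgb2 and Ly6c2. The labels give no batch. Some genes that belong to the lists and their counts are not reported here by name.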

Additional observations from a re-analysis of the deposited data

How the results depend on the processing

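Against 208 genes in unconfined cells, 18 passed with all 10 libraries in a shared fit, 416 with DESeq2, 14 with no filter on low values, 2 with no mean-variance trend and 332 with a GC content and length correction. Without 1 library the number was between 16 and 856. edgeR gave 197, TMM and upper-quartile scaling 182 and 216, pseudocounts of 0.5 and 5 gave 205 and 250, and a mean of at least 50 gave 188. All 208 kept their sign in each of these fits where they were tested (197 at a mean of at least 50). The fits compare the same unconfined libraries, so equal signs are no separate support. The 2 genes that passed without the trend were not among the 208; the cause was not tested.

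Replicate numbers 1 and 3 occur in both genotypes. The differences between replicates 1 and 3 correlated at 0.0017 across genes between WT and WKO. A correlation over all genes cannot decide whether an equal number marks a shared day, mouse or batch, and the labels do not say. With the number as a replicate block 356 genes passed, and 544 with the block and the GC content and length correction together; the 356 hold all 208. The confined groups share only number 2, so no block was fitted there.

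Against 118 genes in confined cells, 323 passed with all 10 libraries, 600 with DESeq2, 12 without the trend and 254 with the GC content and length correction, and between 5 and 326 without 1 library.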
